A study of Oryza sativa with 8 samples.

Results

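The copper transporters of the COPT family and the zinc transporters of the ZIP family were followed in rice roots on Affymetrix arrays. Members were all probe sets whose platform gene symbol, or RefSeq rice symbol or synonym, was COPT1, COPT2, COPT3, COPT4, ZIP1, ZIP3, ZIP4, ZIP5, ZIP7 or ZIP8. The rule used names alone and no measured value, but the names were chosen with earlier results of these data known. It found 9 genes with 1 probe set each, among 17905 genes named on the array and 57381 probe sets in all, and COPT4 was skipped because its name led to no probe set. The roots came from greenhouse pots of the cultivar IR64, from plants with OsPSTOL1, a protein kinase gene tied to tolerance of phosphorus (P) deficiency, behind the 35S promoter (T), or from null segregants without the transgene (NT). The 35S promoter is active in most plant cells, and which root cells expressed the transgene was not measured here. How many transformation events the T plants represent, and whether plants were pooled, is not given in the sources used here. The 4 groups were T and NT in P-deficient soil, all at heading, and T and NT in P-fertilised soil, all at mid-tillering, with 2 arrays in each. Soil and growth stage therefore changed together and cannot be told apart, and every soil difference given here carries both.

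COPT proteins sit in membranes and let reduced copper into the cytoplasm, and in plants they serve copper uptake by roots and the release of copper from internal stores. ZIP proteins move zinc, and in some members iron, copper, manganese or cadmium, mostly toward the cytoplasm. In roots these families act beside exporters of the HMA class, vacuolar carriers of the MTP class and the chelator nicotianamine, which binds copper, zinc and iron in xylem and phloem. Several of the genes are known in cereals to rise when their metal is short. Metal contents were not among the measurements used here.

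Some names were shared. RefSeq lists COPT2 and COPT3 as names of LOC4324611, which is called COPT3 here, and COPT2 as the name of LOC4338846, which is called COPT2. LOC4342782 carries OsZIP1 and OsZIP8 and is called ZIP8, and LOC4338051 carries OsZIP3 and OsZIP7 and is called ZIP7. The other members were COPT1 (LOC4324610), ZIP1 (LOC4326394), ZIP3 (LOC4336971), ZIP4 (LOC4344937) and ZIP5 (LOC4339082, also listed as ZIP2).

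Values are the deposited array intensities, on a linear scale. Because probe sets differ in brightness for equal amounts of RNA, values were compared between arrays within a probe set and never between genes. Summed intensity ran from 8060018 to 8802152 per array, and log2 values of replicate arrays correlated at 0.964 to 0.984 over the probe sets, a description and no test. Both T arrays of P-deficient soil stood apart in RNA integrity, T replicate 1 by far the more. Its 3-prime GAPDH control probe set read 198 times its 5-prime one, against ratios of 1.15 to 3.05 on the other 7 arrays. The same ratio for actin was 272 in T replicate 1 and 20.3 in T replicate 2 of P-deficient soil, against 4.85 to 8.61 on the other 6 arrays. RNA integrity thus went with genotype in P-deficient soil. T replicate 1 gave the lowest of the 4 P-deficient readings in 6 of the 9 members, or 66.7%, and in 28.1% of all probe sets tested. NT replicate 2 gave the lowest in the other 3 members and in 29.9% of all probe sets. In bulk roots, fewer cells of a type and less RNA per cell cannot be told apart, and this holds for every difference that follows.

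COPT1, known in rice as a plasma membrane copper transporter, was far dimmer in P-deficient soil. Its intensity was 27.7 and 45.0 in the T arrays and 48.8 and 47.8 in the NT arrays of P-deficient soil. In P-fertilised soil it read 1879 and 1513 for T and 2024 and 1783 for NT. All 4 P-fertilised arrays lay far above all 4 P-deficient arrays, in both genotypes. The mean was 42.3 ± 9.88 (SD, n = 4) in P-deficient soil and 1800 ± 215 (SD, n = 4) in P-fertilised soil, so the P-fertilised level was 42.5 times the P-deficient one. Here and below, an SD with n = 4 is over the T and NT arrays together. It thus holds any genotype difference as well as the spread between replicates. Tested as log2(intensity + 32) with limma over 34316 probe sets, the difference of P-deficient minus P-fertilised was -4.63 ± 0.13 (SE) with an adjusted p of 1.42e-07. The added 32 understates the change of dim probe sets. By this difference COPT1 was the 34th lowest of the 34316 probe sets. The difference was -4.59 in NT (adjusted p = 2.65e-06, limma) and -4.66 in T (adjusted p = 2.17e-06, limma), or 39.4 and 46.7 times in linear ratio.

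COPT2, a second copper transporter of the family, was lower in the same soil by much less. It read 27.6 and 43.9 for T and 48.7 and 57.7 for NT in P-deficient soil. The P-fertilised arrays read 94.4 and 76.6 for T and 85.4 and 101.6 for NT. The groups did not overlap, and the lowest reading was that of the T array with the high GAPDH ratio. The means were 44.5 ± 12.6 and 89.5 ± 10.9 (SD, n = 4 each), a ratio of 2.01. The log2 difference was -0.68 ± 0.13 (SE, adjusted p = 0.00244, limma). Within genotypes it was -0.80 in T (adjusted p = 0.00871) and -0.56 in NT (adjusted p = 0.0439, limma). The NT call was lost when any 1 of 6 arrays was left out, with an adjusted p of up to 0.212 (NT replicate 2, P-fertilised). The T call was lost without T replicate 1 of P-deficient soil (-0.63, adjusted p = 0.0565, limma) or T replicate 1 of P-fertilised soil (-0.69, adjusted p = 0.0658, limma).

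COPT3 was near the bottom of the array's range and was left out by the filter on low signals. It read 10.4 and 13.9 for T and 11.6 and 9.7 for NT in P-deficient soil, and 1.8 and 2.5 for T and 8.5 and 5.0 for NT in P-fertilised soil. The P-deficient readings were all above the P-fertilised ones, the opposite order to COPT1 and COPT2. A two-sided exact permutation test of the 4 against 4 arrays gave p = 0.0286. The test exchanged arrays without regard to genotype, and this is the smallest p such an exchange can give. The difference was 0.25 on the log2(intensity + 32) scale. Signals this close to 0 carry little information on the amount of RNA, and detection calls were not used here.

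**Figure D1:**
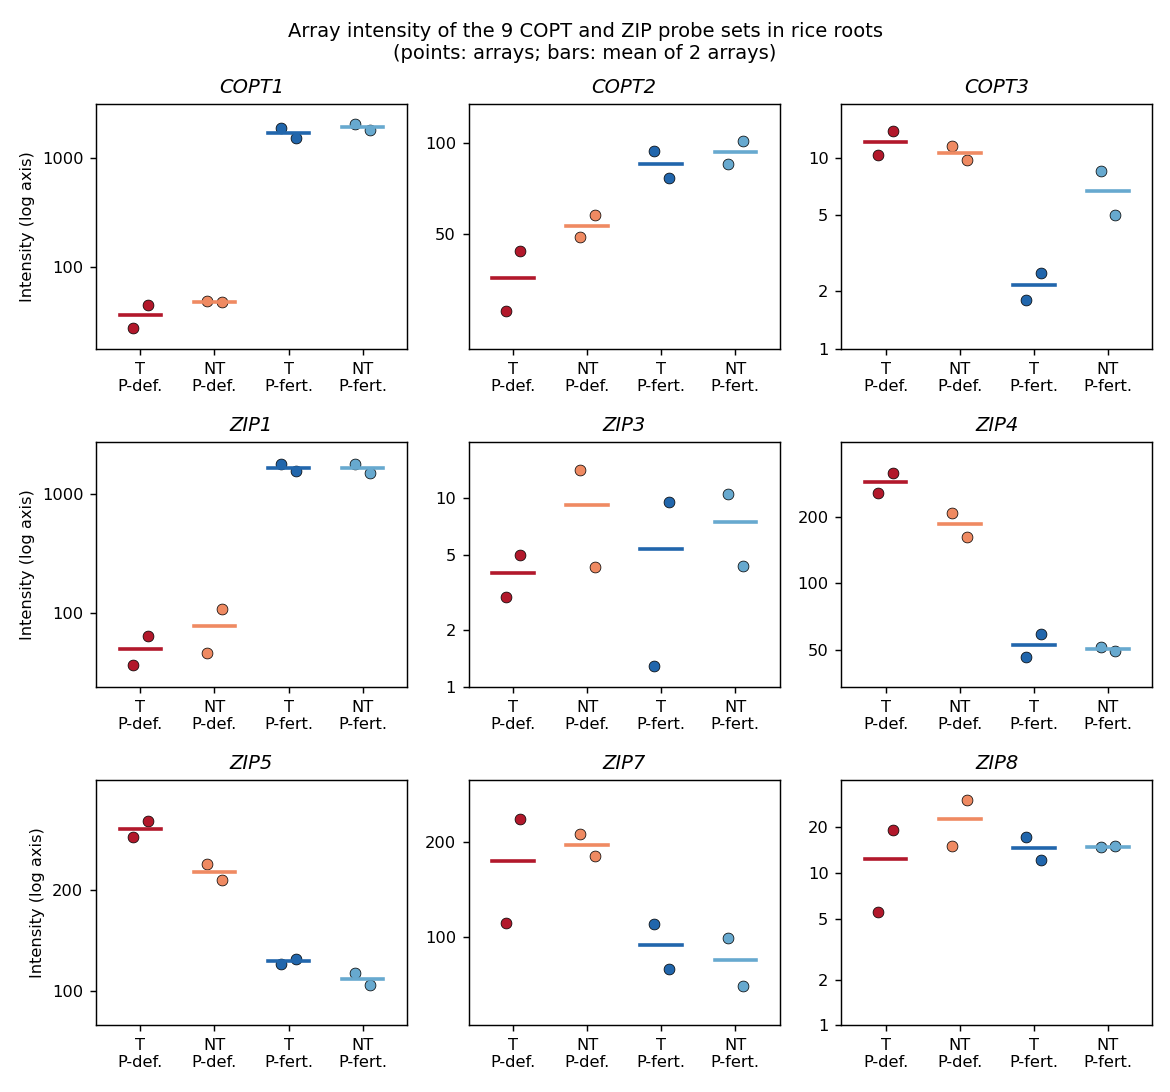
Array intensity (vertical axis, log scale, with its own range in each panel) of the 9 COPT and ZIP probe sets in the 4 groups, T and NT in P-deficient (P-def.) and P-fertilised (P-fert.) soil. Points are arrays and bars are means of 2 arrays. COPT1 and ZIP1 sit at 1497 or above in all P-fertilised arrays and at or below 109.0 in all P-deficient ones, while ZIP4, ZIP5 and ZIP7 are higher in the P-deficient arrays.

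ZIP1, known in rice as a plasma membrane metal transporter that carries zinc, copper and cadmium out of cells, had nearly the same pattern as COPT1. In P-deficient soil it read 36.7 and 65.0 for T and 46.8 and 109.0 for NT. In P-fertilised soil it read 1771 and 1538 for T and 1784 and 1497 for NT. No P-deficient array came near a P-fertilised one, although the NT replicates of P-deficient soil differed 2.33-fold from each other. The means were 64.4 ± 31.97 and 1648 ± 151 (SD, n = 4 each), so the P-fertilised level was 25.6 times higher. The log2 difference of -4.17 ± 0.20 (SE, adjusted p = 1.68e-06, limma) was the 68th lowest of all probe sets. It was -3.98 in NT (adjusted p = 3.45e-05) and -4.37 in T (adjusted p = 2.13e-05, limma).

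ZIP4, ZIP5 and ZIP7 moved the other way and were higher in P-deficient soil. ZIP4, a zinc transporter whose transcript is known to rise in zinc-deficient rice, read 255.7 and 316.5 for T and 208.7 and 162.5 for NT in P-deficient soil. The P-fertilised arrays read 46.6 and 58.9 for T and 51.5 and 49.3 for NT. The lowest P-deficient array was well above the highest P-fertilised one. The means of 235.9 ± 65.9 and 51.6 ± 5.28 (SD, n = 4 each) gave a ratio of 4.57. The log2 difference was 1.65 ± 0.13 (SE, adjusted p = 1.81e-05, limma), 1.39 in NT (adjusted p = 0.000652) and 1.91 in T (adjusted p = 0.00012, limma).

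ZIP5, which in rice takes up zinc into roots, read 288.4 and 323.0 for T and 240.4 and 214.1 for NT in P-deficient soil. In P-fertilised soil it read 120.8 and 124.7 for T and 113.5 and 104.4 for NT. Replicates lay close together in every group, and the soils did not overlap. The means were 266 ± 48.6 and 116 ± 8.93 (SD, n = 4 each), a ratio of 2.30. The log2 difference was 1.001 ± 0.11 (SE, adjusted p = 0.000115, limma), with 0.88 in NT (adjusted p = 0.00295) and 1.12 in T (adjusted p = 0.000734, limma).

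ZIP7, known in rice for loading zinc into the xylem, read 110.9 and 236.3 for T and 211.4 and 180.3 for NT in P-deficient soil. The P-fertilised arrays read 110.0 and 79.1 for T and 99.5 and 69.8 for NT. The soils separated narrowly, because T replicate 1 of P-deficient soil, the array with the high GAPDH ratio, was within 1 unit of T replicate 1 of P-fertilised soil. The means were 185 ± 54.3 and 89.6 ± 18.4 (SD, n = 4 each), a ratio of 2.06. The log2 difference was 0.81 ± 0.21 (SE, adjusted p = 0.0129, limma). It passed in NT (0.97 ± 0.30, adjusted p = 0.0362) and not in T (0.64 ± 0.30, adjusted p = 0.131, limma), and the interaction of genotype and soil, which tests that difference, did not pass. The T difference rested on single arrays of P-deficient soil: it was 1.09 without T replicate 1 (adjusted p = 0.0165, limma) and 0.19 without T replicate 2 (adjusted p = 0.63, limma). The call over both genotypes was lost without T replicate 2 of P-fertilised soil (0.72, adjusted p = 0.0511, limma) or NT replicate 2 of P-fertilised soil (0.72, adjusted p = 0.0544, limma). The NT call was lost without any 1 of the 4 NT arrays or of the T arrays of P-fertilised soil, with an adjusted p of up to 0.198.

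ZIP8 and ZIP3 were dim on all arrays. ZIP8, a zinc transporter of the plasma membrane in rice, read 5.6 and 19.2 for T and 15.1 and 30.1 for NT in P-deficient soil, and 17.2 and 12.2 for T and 14.8 and 15.1 for NT in P-fertilised soil. Its soil difference was 0.06 with a 95% interval of -0.24 to 0.36 (adjusted p = 0.746, limma), and the soils overlapped. ZIP3, which in rice nodes takes zinc out of the xylem, read 3.0 and 5.0 for T and 14.1 and 4.3 for NT in P-deficient soil. In P-fertilised soil it read 1.3 and 9.5 for T and 10.5 and 4.4 for NT. Replicates of ZIP3 differed from each other as much as the groups did, it was left out by the filter, and the exact permutation test between soils gave p = 1.

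**Figure D2:**
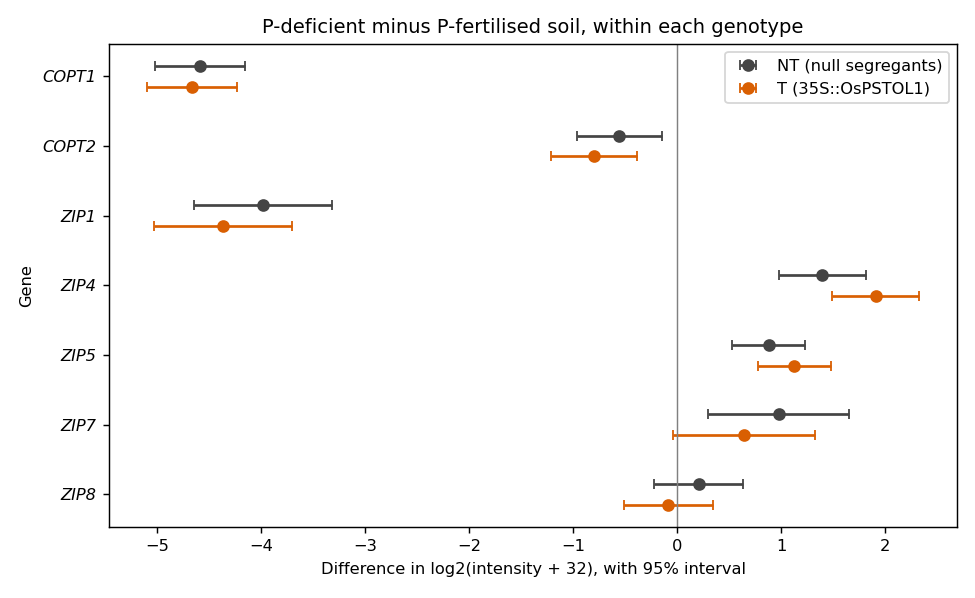
Difference of P-deficient minus P-fertilised soil on the log2(intensity + 32) scale (horizontal axis) for the 7 members tested, in NT (grey) and in T (orange), with 95% intervals as bars. COPT1 and ZIP1 lie at -3.98 or lower in both genotypes, COPT2 lies closer to 0 on the same side, ZIP4, ZIP5 and ZIP7 lie above 0, and the intervals of ZIP8 and of ZIP7 in T include 0.

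Of the 7 members that passed the filter, 3 (ZIP4, ZIP5 and ZIP7) were called higher in P-deficient soil and 3 (COPT1, COPT2 and ZIP1) lower, against a background of 47.1% of the 34316 probe sets called in this comparison. Higher calls made up 22.3% of all probe sets and lower calls 24.8%. The soils did not overlap in 6 of the 7, against 43.9% of all probe sets. The median size of the difference was 1.001 in the 7 and 0.33 in all probe sets tested. A difference of a size over 1 was found in 16.2% of all probe sets, and 1 over 4, which COPT1 and ZIP1 reached, in 0.589%. With close to every other probe set called, a call alone sets a member little apart from the rest of the array, and it is by size that COPT1 and ZIP1 lay in the tail. Because the members were chosen with earlier results of these data known, their shares are a description and no test. In NT alone 6 of the 7 were called, against 32.5% of all probe sets, and in T alone 5 of the 7, against 35.7%.

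**Figure D3:**
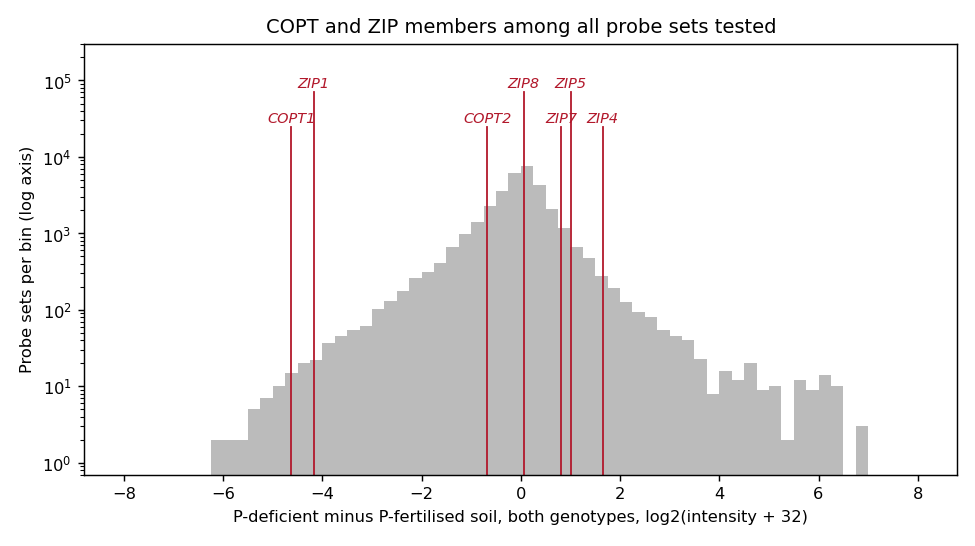
Distribution of the P-deficient minus P-fertilised difference (horizontal axis, log2(intensity + 32) scale) over all 34316 probe sets tested, with the number of probe sets per bin on a log vertical axis and the 7 members marked by lines. COPT1 at -4.63 and ZIP1 at -4.17 lie in the left tail, while the other 5 members lie between -0.68 and 1.65.

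Some root marker genes also differed between the soils, and others did not. The root list held 9 genes with a probe set, and none of them read 0 on any array. LSI1, the silicon influx carrier of the root, read at least 2015 on every array. The summed intensity of the root list was 2271.5 to 3163.7 on the P-deficient arrays and 9219.2 to 9899.5 on the P-fertilised arrays. Of the 9 genes, 6 were called lower in P-deficient soil and 0 higher, against 24.8% and 22.3% of all probe sets. Among the lower ones were the silicon exporter LSI2 (-4.78), the silicon channel LSI6 (-3.91) and CASP1, which builds the Casparian strip of the endodermis (-3.54). Not called were SCR1 (0.07, adjusted p = 0.62), SHR1 (-0.24, adjusted p = 0.149) and NRT2.2 (-0.20, adjusted p = 0.47, limma). The reproductive organ list of 10 MADS-box genes (9 names, with MADS2 at 2 loci) summed to 1100.7 to 1335.8 in P-deficient soil and 521.4 to 650.1 in P-fertilised soil. There were 3 higher and 0 lower calls among 6 tested. The higher ones were MADS16 (1.08, mean intensity 755 against 339) and the MADS2 loci LOC4343851 (1.61) and LOC4325001 (0.65). Not called were MADS4 (-0.01), MADS58 (-0.01) and MADS8 (-0.19). MADS3, MADS6, MADS7 and MADS13 were left out by the filter, so the sum does not stand for the list as a whole. The green tissue list of 6 genes summed to 999.1 to 1760.4 in P-deficient soil and 772.1 to 1535 in P-fertilised soil, where T replicate 2 was the highest. Most of this sum was GLO1 on nearly every array (849.9 to 1439.2 in P-deficient and 532.6 to 668.2 in P-fertilised soil). It was the 1 higher call of the list, with 0 lower. T replicate 2 of P-fertilised soil read 397.3 for CAB2R and 367.7 for PETE, against at most 67.1 and 102.2 on the other arrays. That array was also the highest for LFNR1 and RCA, but not for RBCS or GLO1. No gene of these lists read 0 on any array either, so reading above 0 does not tell the tissues apart and is no check of the labelled tissue. The root sum moved with COPT1 and ZIP1 and against ZIP4, ZIP5 and ZIP7, and its part in the members' differences was not tested.

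The question of what OsPSTOL1 changes was addressed by T against NT. None of the 7 members was called in P-deficient soil by limma at an adjusted p of 0.05, where 0.108% of all probe sets (37) were called and 4551 had an unadjusted p under 0.05. ZIP4 and ZIP5 were the members with an unadjusted p under 0.05. ZIP4 in P-deficient soil read 255.7 and 316.5 in T against 208.7 and 162.5 in NT, 1.54 times in linear ratio. Its log2 difference of T minus NT was 0.55 ± 0.18 (SE, 95% interval 0.13 to 0.97, adjusted p = 0.282, limma). ZIP5 stood at 1.35 times, with a log2 difference of 0.38 ± 0.15 (SE, 95% interval 0.03 to 0.73, adjusted p = 0.344, limma). The intervals are for single genes and are not adjusted for the number of probe sets.

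COPT1 and COPT2 read lower in both T arrays than in both NT arrays of P-deficient soil, by log2 differences of -0.24 (95% interval -0.68 to 0.19) and -0.34 (-0.75 to 0.07). For ZIP1 the difference was -0.37 (-1.03 to 0.29), for ZIP7 -0.22 (-0.90 to 0.47) and for ZIP8 -0.30 (-0.73 to 0.13), with overlapping groups. In all, T and NT did not overlap in 4 of the 7 members (COPT1, COPT2, ZIP4 and ZIP5), and in 40.5% of all probe sets. The lower T readings of COPT1 and COPT2 came with GAPDH ratios of 198 and 3.05 in the T arrays and 1.15 and 1.21 in the NT arrays. RNA integrity went with genotype here, and its part in any of these differences was not tested. Without T replicate 1, the array with the ratio of 198, the difference was -0.06 for COPT1, -0.16 for COPT2, -0.12 for ZIP1 and -0.08 for ZIP8, and that of ZIP7 turned to 0.24. Without T replicate 2 the differences were -0.43 for COPT1, -0.51 for COPT2, -0.62 for ZIP1, -0.67 for ZIP7 and -0.52 for ZIP8. With the GAPDH ratio as a covariate, which the array at 198 dominates, COPT1 stood at 0.01 and COPT2 at -0.11. Without NT replicate 2, ZIP1 stood at 0.05. The direction in ZIP4 and ZIP5 was the opposite one, with T above NT on both T arrays. Their differences were 0.69 and 0.46 without T replicate 1, and 0.41 and 0.31 without T replicate 2. None of these values passed an adjusted p of 0.05 (limma).

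In P-fertilised soil T and NT lay closer together, in the members and over the array as a whole. The median size of the difference was 0.096 in the members and 0.108 over all probe sets tested. In P-deficient soil these medians were 0.339 and 0.179. The members' log2 differences in P-fertilised soil ran from -0.17 to 0.14, and each adjusted p was 1 (limma). No member was called or had an unadjusted p under 0.05, against 0.00291% of probe sets called (1) and 897 with an unadjusted p under 0.05. ZIP5 alone had groups that did not overlap (0.14, 95% interval -0.22 to 0.49), as did 36.5% of all probe sets. COPT1 read 1696 ± 259 in T and 1903 ± 170 in NT (SD, n = 2 each), a difference within the spread between replicates.

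Over both soils together no member was called, against 0.0321% of probe sets (11), with 3303 at an unadjusted p under 0.05. ZIP5 had a difference of 0.26 (95% interval 0.01 to 0.51, adjusted p = 0.509, limma) and ZIP4 one of 0.29 (adjusted p = 0.521, limma). For the filtered members the two-sided exact permutation test of 4 T against 4 NT arrays gave p = 0.629 for COPT3 and p = 0.229 for ZIP3. The interaction, T minus NT in P-deficient soil less T minus NT in P-fertilised soil, was called for no member and for 0.0% of probe sets, with 2032 at an unadjusted p under 0.05. It was 0.51 ± 0.26 for ZIP4 (SE, 95% interval -0.08 to 1.101, adjusted p = 0.839, limma), and no member had an unadjusted p under 0.05. These intervals are wide enough to hold moderate genotype differences, so equal levels in T and NT are not shown.

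**Figure D4:**
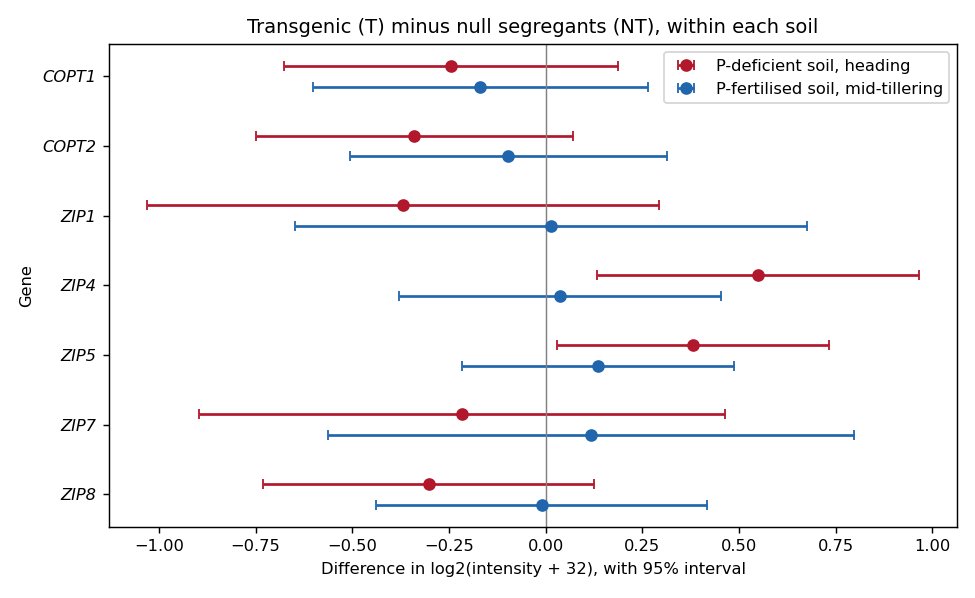
Difference of T minus NT on the log2(intensity + 32) scale (horizontal axis) for the 7 members tested, in each soil, with unadjusted 95% intervals as bars. In P-deficient soil the ZIP4 and ZIP5 intervals lie above 0 and the others include 0, and in P-fertilised soil all 7 include 0.

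Other genes of the same families were read from a fixed list of 15 names, of which 5 had a probe set and were tested. In P-deficient soil 0 were called higher and 4 lower, against 22.3% and 24.8% of all probe sets. The median difference was -0.50 against 0.01 over all probe sets. IRT1, the main ferrous iron importer of grass roots, had a mean intensity of 41.3 in P-deficient against 142 in P-fertilised soil and a log2 difference of -1.25 ± 0.14 (SE, adjusted p = 0.000114, limma). COPT7, another copper transporter, was lower by -0.85 ± 0.16 (SE, adjusted p = 0.00231, limma). The iron importer IRT2 (-0.39, adjusted p = 0.0237) and ZIP2 (-0.50, adjusted p = 0.0283, limma) were lower too. ZIP6, the fifth gene, named outside the rule, did not pass (0.05, adjusted p = 0.766, limma). Among the 12 COPT, ZIP and IRT genes tested, ZIP4, ZIP5 and ZIP7 were called higher, against 22.3% of all probe sets. The ZIP7 call was lost when single arrays were left out, as given above. Nothing about the families is read from this count.

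Of 20 names of other copper genes, 9 had a probe set and were tested. In P-deficient soil 5 were called higher and 3 lower, against 22.3% and 24.8% of all probe sets, with a median of 0.27. HMA5, the copper pump that loads the xylem in rice roots, had means of 106 and 561 in P-deficient and P-fertilised soil and a log2 difference of -2.10 ± 0.12 (SE, adjusted p = 3.08e-06, limma). YSL16, a carrier of copper bound to nicotianamine, was lower by -1.37 ± 0.19 (SE, adjusted p = 0.000529). HMA4, which in rice moves copper into root vacuoles, was lower by -0.93 ± 0.14 (SE, adjusted p = 0.00071, limma). SODCC2, a copper and zinc superoxide dismutase, was higher by 1.11 ± 0.10 (SE, adjusted p = 4.89e-05, limma). The other 4 higher calls, named outside the rule, were SPL9, a regulator of copper genes (0.66), the superoxide dismutase SODCC1 (0.27), the copper chaperone CCS (0.36) and SODA (0.42). SODA is a manganese superoxide dismutase and no copper gene, and it entered the list by name.

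Of 28 names of other zinc genes, 13 had a probe set and 12 were tested. Calls in P-deficient soil were 5 higher and 4 lower, against 22.3% and 24.8% of all probe sets, and the median was 0.11. The 4 lower ones were in the synthesis of nicotianamine and of the mugineic acids made from it, which grasses use to take up iron. NAS1, a nicotianamine synthase, read 19.6 to 105.3 in P-deficient and 1676 to 2031 in P-fertilised soil, a log2 difference of -4.69 ± 0.26 (SE, adjusted p = 2.96e-06, limma). NAS2 (-3.75 ± 0.21), the aminotransferase NAAT1 (-2.95 ± 0.18) and NAS3 (-2.28 ± 0.15) followed (SE, adjusted p of at most 7.82e-06, limma). NAS2 and NAAT1 are in the root list as well. The 5 higher ones were named outside the rule. They were the zinc carrier of the vacuole MTP1 (1.37 ± 0.12, adjusted p = 2.84e-05, limma), the vacuolar metal carrier VIT2 (mean intensity 323 in P-deficient against 132 in P-fertilised soil), MTP5 (0.71), BZIP49 (1.13) and BZIP50 (1.31). BZIP49 is also listed as TGAL8 and BZIP50 as BZIP60 and BZIP74, so that their place among zinc genes is uncertain, as is that of the uncalled TOM1. In all 3 lists 0 genes were called between T and NT in either soil or in the interaction.

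**Figure D5:**
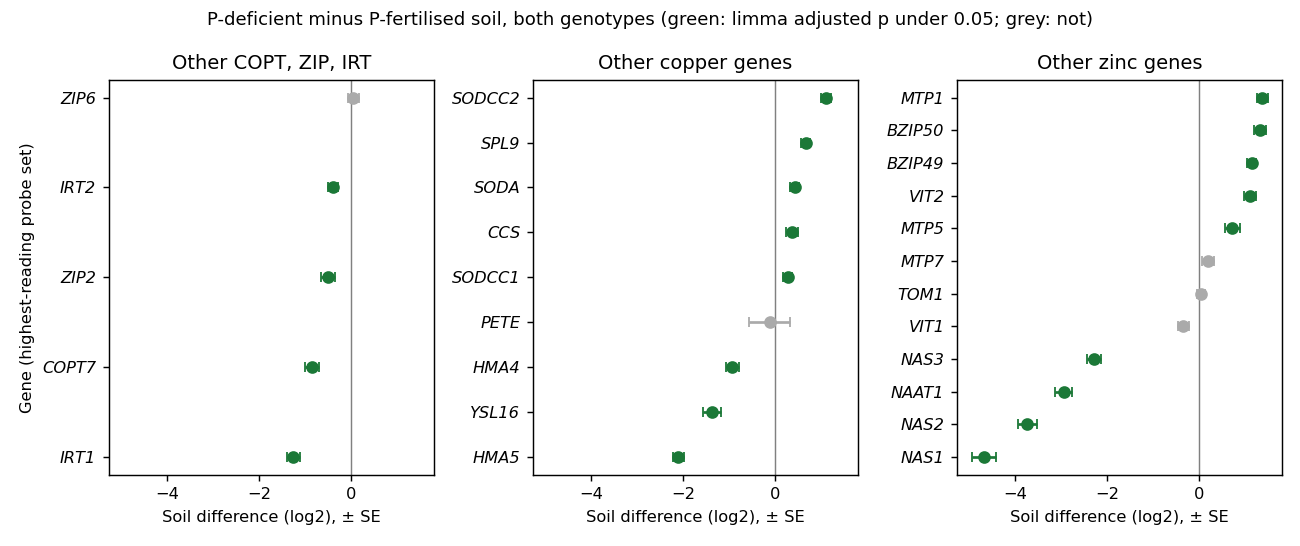
Difference of P-deficient minus P-fertilised soil (horizontal axis, log2(intensity + 32) scale) for the tested genes of the 3 lists of related genes, 1 panel per list. Bars are standard errors, green points passed an adjusted p of 0.05 (limma) and grey ones did not. IRT1 (-1.25), HMA5 (-2.10) and NAS1 (-4.69) lie lowest in their panels, and the first panel has no green point above 0.

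The members were also placed by their neighbours in the RefSeq rice genome of assembly ASM3414082v1, used for names and order alone. COPT1 and COPT3 lie next to each other with 0 protein-coding genes between them. COPT1 was among the probe sets with the lowest difference of P-deficient minus P-fertilised, while the dim COPT3 read higher in P-deficient than in P-fertilised soil. ZIP5 lies next to ZIP9, which in rice shares root zinc uptake with it and had no probe set named here. Of 11 other genes flanking the members that were measured, 7 were called between soils (2 higher and 5 lower), with differences from -1.51 to 1.26. Calls over all probe sets made up 47.1% (22.3% higher and 24.8% lower), and with 11 genes nothing is read from this count.

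The named genes most like each member were found by the root mean square distance between the 8 log2 values, each centred on its own mean, among 2817 named probe sets. COPT1 was nearest to OsCASPL1U3 (0.237) and CPDK2 (0.273), with ZIP1 at 0.324. ZIP1 was nearer to COPT1 than to either named gene found for it, AT4 (0.395) and IAA30 (0.428). ZIP4 was nearest to OsPP2C09 (0.105) and ABIL1 (0.109), ZIP5 to myb30 (0.0702) and GRXS10 (0.0924), and ZIP7 to CIPK2 (0.133) and OsSWEET16 (0.152). COPT2 was nearest to OsSPX4 (0.113) and RBP-208 (0.115). These distances follow the split between soils, which so many genes share, and they depend on the added constant. With 100 in place of 32, 5 of the 12 names stayed.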

How the data were processed

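Total root RNA was hybridised to rice arrays, 1 per sample (8 arrays, 2 in each of 4 groups). The deposited intensity values are linear, and the submitters' processing notes name GCOS, without its version (not given in the sources used here). Each array's mean after trimming its extremes was 100.01 to 100.02, so the authors had scaled them to a common level. The number of arrays limits the precision.

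Control probe sets (187) and the 40 percent of the others with the lowest mean were left out, which kept 34316. The deposited intensities were analysed as log2(value + 32), and the filter kept means of at least 5.39 on this scale. The fit of the 4 group means used limma 3.58.1 under R 4.3.3 (lmFit, eBayes with trend, 4 residual degrees of freedom), with Benjamini-Hochberg adjustment over all probe sets and a threshold of 0.05. The fit was tested on simulated data with independent noise, which checks the code and not these arrays. Members below the filter were given exact permutation tests, in which arrays were exchanged freely and not within genotypes or soils. The labels call the arrays of a group biological replicates and do not say whether plants were pooled.

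Genes were named through the platform annotation and a RefSeq table (22436 probe sets with 1 gene). All members were named; from each of 3 lists of related genes up to 4 with the smallest p were, and any further gene of a list was named after its values were seen. The members, lists and markers were chosen with earlier results of these data known. Sequences were not used here. Alternatives were pseudocounts of 1 and 100, no filter or a filter of 60 percent, quantile normalization, no trend, a replicate block, the GAPDH ratio as a covariate, only the 4 arrays compared, and leaving out each array. Added after the data were seen was leaving out both T replicate 1 of P-deficient soil (highest GAPDH ratio) and T replicate 2 of P-fertilised soil (highest green tissue sum there).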

Additional observations from a re-analysis of the deposited data

How the results depend on the processing

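With 2 arrays per group the spread had to be pooled over groups, and soil cannot be separated from stage. No member changed direction in a called difference under any alternative; uncalled ones did, among them those of COPT1, ZIP1, ZIP7 and ZIP8 between T and NT in P-deficient soil. Of the 7 members tested, 6 were called between soils over both genotypes, and 5 or 6 under 16 of 17 alternatives (5 to 6 with 1 array left out). Without the filter all 9 members were tested and 7 called, the further one being COPT3; the filter of 60 percent tested 6. In NT the count was 6, and 4 to 6 under 18 alternatives, and in T it was 5, and 4 to 6 (6 without the filter). The counts for T against NT and for the interaction were 0 under every alternative. COPT1 (-5.40 to -3.73), ZIP1 (-4.77 to -3.43), ZIP4 (1.13 to 2.13) and ZIP5 (0.76 to 1.18) were called over both genotypes and in each under all of them. COPT2 lost its NT call under 12 of 18 alternatives and its T call under 4, and ZIP7 lost its NT call under 8; the cause was not tested. ZIP7 passed in T with the GAPDH ratio as a covariate (1.196, adjusted p = 0.0193, limma). With the replicate number as a block, 6 members were called over both genotypes, 4 in NT and 5 in T, and 0 between T and NT. The labels share only the number, and deviations of same-numbered arrays correlated at -0.261 to 0.210, so it was not taken as a pairing. Over all probe sets, calls between T and NT ranged from 0 to 504 in P-deficient soil (37 as reported), 0 to 7 in P-fertilised soil (1), 0 to 236 over both (11) and 0 to 140 for the interaction (0). The counts of 504, 236 and 140 came when T replicate 2 of P-deficient soil was left out, so that the array with the high GAPDH ratio stood alone for its group, and the 7 when T replicate 1 of P-fertilised soil was. The NT soil count fell from 11166 to 6821 when NT replicate 2 of P-fertilised soil was left out and to 7234 when NT replicate 1 was. The T count fell from 12235 to 7855 when T replicate 2 of P-fertilised soil was left out and to 5397 with the added alternative of 2 arrays left out.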
